A study of Schizosaccharomyces pombe with 24 samples.

Results

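The 63 long non-coding RNAs (lncRNAs) described here are fission yeast transcripts with a low but measurable level in wild type and a level at or below 0.5 of that in at least one of 7 strains mutated in the cleavage and polyadenylation machinery. They were chosen from 711 lncRNAs with SPNCRNA identifiers whose mean in the wild-type libraries lay from 1 to under 10 counts per 1000000 (CPM, a gene's reads in each 1000000 reads counted in the library), among 1527 such lncRNAs and 6988 genes in all. Of the others, 647 stayed above 0.5 of the wild-type mean in every mutant, and 1 more met the ratio but was excluded by name. Because the comparison of each mutant with wild type chose the 63, their differences from wild type are given as a description without a test.

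Fission yeast (Schizosaccharomyces pombe) transcribes many lncRNAs with RNA polymerase II, often from the strand opposite a protein-coding gene or from the start region of a gene that points the other way. Their 3' ends are made by the same machinery that ends mRNAs: Cft1, Pfs2, Msi2 and Pta1 help to recognise the site and hold the complex together, Ysh1 is the endonuclease that cuts the transcript, and Pla1 is the poly(A) polymerase that adds the tail. A lncRNA can run through or near the promoter of a neighbouring gene, and some fission yeast lncRNAs are known to repress the gene downstream. Nuclear surveillance by the exosome and the MTREC complex removes many lncRNAs soon after they are made.

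Polyadenylated RNA was sequenced from haploid cells in log phase in rich YES medium at 30 °C, with 3 biological replicates of wild type (h-, WT) and of each mutant. The mutants were ysh1-L74F, pta1-T524M, msi2-G252E and the pfs2 alleles E104A (pfs2-E104A) and V180F (pfs2-V180F), all h- and all carrying a kanMX marker at a wild-type asp1 locus, pla1-Y86L, which is h- and carries its own kanMX marker, and cft1-L249Q, which is h+. WT carries no marker in the labels, so marker, mating type and mutation cannot be told apart where they go together. Libraries held 19.4 to 29.3 M counts. A gene count does not show a point mutation, but pla1 mRNA itself was lower in pla1-Y86L (log2 fold change -2.08 ± 0.04, SE), whereas the mRNA of the gene mutated in each of the other strains differed from WT by a log2 value between -0.15 and 0.13. The M-factor gene mfm2 was lower in cft1-L249Q (log2 fold change -4.57 ± 0.15), the strain labelled h+. It was also lower, by less, in strains labelled h-: pla1-Y86L (-1.96 ± 0.11), msi2-G252E (-1.33 ± 0.11), pfs2-V180F (-0.87 ± 0.10) and pta1-T524M (-0.33 ± 0.10). Counts of polyadenylated RNA in a bulk culture cannot tell less RNA per cell from fewer cells with the RNA, or less RNA from RNA with a tail too short to be captured.

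All 63 lncRNAs passed the filter on low counts. In WT their means ran from 1.06 to 9.44 CPM with a median of 3.02 CPM, which corresponds to 23 to 290 reads per library. The lowest count of any of them in any library was 3 reads. The coefficient of variation over the 3 WT libraries had a median of 14.8% and a range of 1.46 to 34.9%. The transcripts lie on chromosome I (32), chromosome II (20) and chromosome III (11). The reference annotation calls 56 of them non-coding RNA, 6 non-coding RNA that may be an alternative UTR, and 1, prl42 (SPNCRNA.42), a poly(A)-bearing RNA. At the limits of the selection, SPNCRNA.1384 was just inside at a ratio to WT of 0.499 in pfs2-V180F and SPNCRNA.525 just outside at 0.501 in pta1-T524M. SPNCRNA.745 had the lowest WT mean inside, 1.06 CPM, and SPNCRNA.1514 lay below the limit at 0.972 CPM. SPNCRNA.738 had the highest WT mean, 9.44 CPM, and SPNCRNA.1571 lay above the limit at 10.6 CPM.

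A level at or below 0.5 of WT is called low here. It was reached by 27 of the 63 in pla1-Y86L, 15 in msi2-G252E, 15 in pta1-T524M, 11 in pfs2-E104A, 6 in pfs2-V180F, 6 in cft1-L249Q and 1 in ysh1-L74F. Over all genes tested the same ratio was reached by 1.92% in pla1-Y86L, 1.19% in msi2-G252E, 1.15% in pta1-T524M, 0.954% in pfs2-E104A, 1.0% in pfs2-V180F, 0.827% in cft1-L249Q and 0.239% in ysh1-L74F, and by 4.72% in at least one mutant. The low combinations of lncRNA and mutant were picked by the means of the same libraries. This favours separation from WT, so the separation is no added support. In each of these combinations, all 3 mutant libraries lay below all 3 WT libraries. That arrangement was found in 26.3% of all genes tested in pla1-Y86L, 16.2% in msi2-G252E, 20.2% in pta1-T524M, 16.2% in pfs2-E104A, 21.0% in pfs2-V180F, 8.97% in cft1-L249Q and 5.61% in ysh1-L74F. The counts for some mutants rested partly on single libraries. Without cft1-L249Q replicate 2 or WT replicate 3 the count in cft1-L249Q was 3. Without pfs2-E104A replicate 2 or WT replicate 1 that in pfs2-E104A was 6, and without pfs2-V180F replicate 3 that in pfs2-V180F was 3. The count of 15 in pta1-T524M was 10 to 13 with 1 library left out.

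Of the 63, 52 were low in 1 mutant, 6 in 2 mutants, 3 in 3 mutants and 2 in 4 mutants, and none in 5 or more. Of the 297 genes of all kinds tested that were low in at least one mutant, 204 (68.7%) were low in 1 mutant, 47 (15.8%) in 2, 29 (9.76%) in 3 and 14 (4.71%) in 4. For the 63 the share low in 1 mutant was 82.5%. The difference between these shares was not tested. Low in no other mutant were 19 lncRNAs in pla1-Y86L, 10 in pta1-T524M, 9 with pfs2-E104A, 8 in msi2-G252E, 4 with pfs2-V180F, 1 in cft1-L249Q and 1 in ysh1-L74F. Among shared sets, 3 lncRNAs were low in exactly msi2-G252E and pla1-Y86L, and 2 in exactly pta1-T524M and pla1-Y86L. The mutants share their WT libraries. No lncRNA was low with both pfs2 alleles, but only 11 were low with pfs2-E104A and 6 with pfs2-V180F, so little overlap could be seen. The mean was below WT in every mutant for 13 lncRNAs and above WT in at least one mutant for the other 50. For these shared sets and this split, the shares over all genes tested were not counted.

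**Figure D1:**
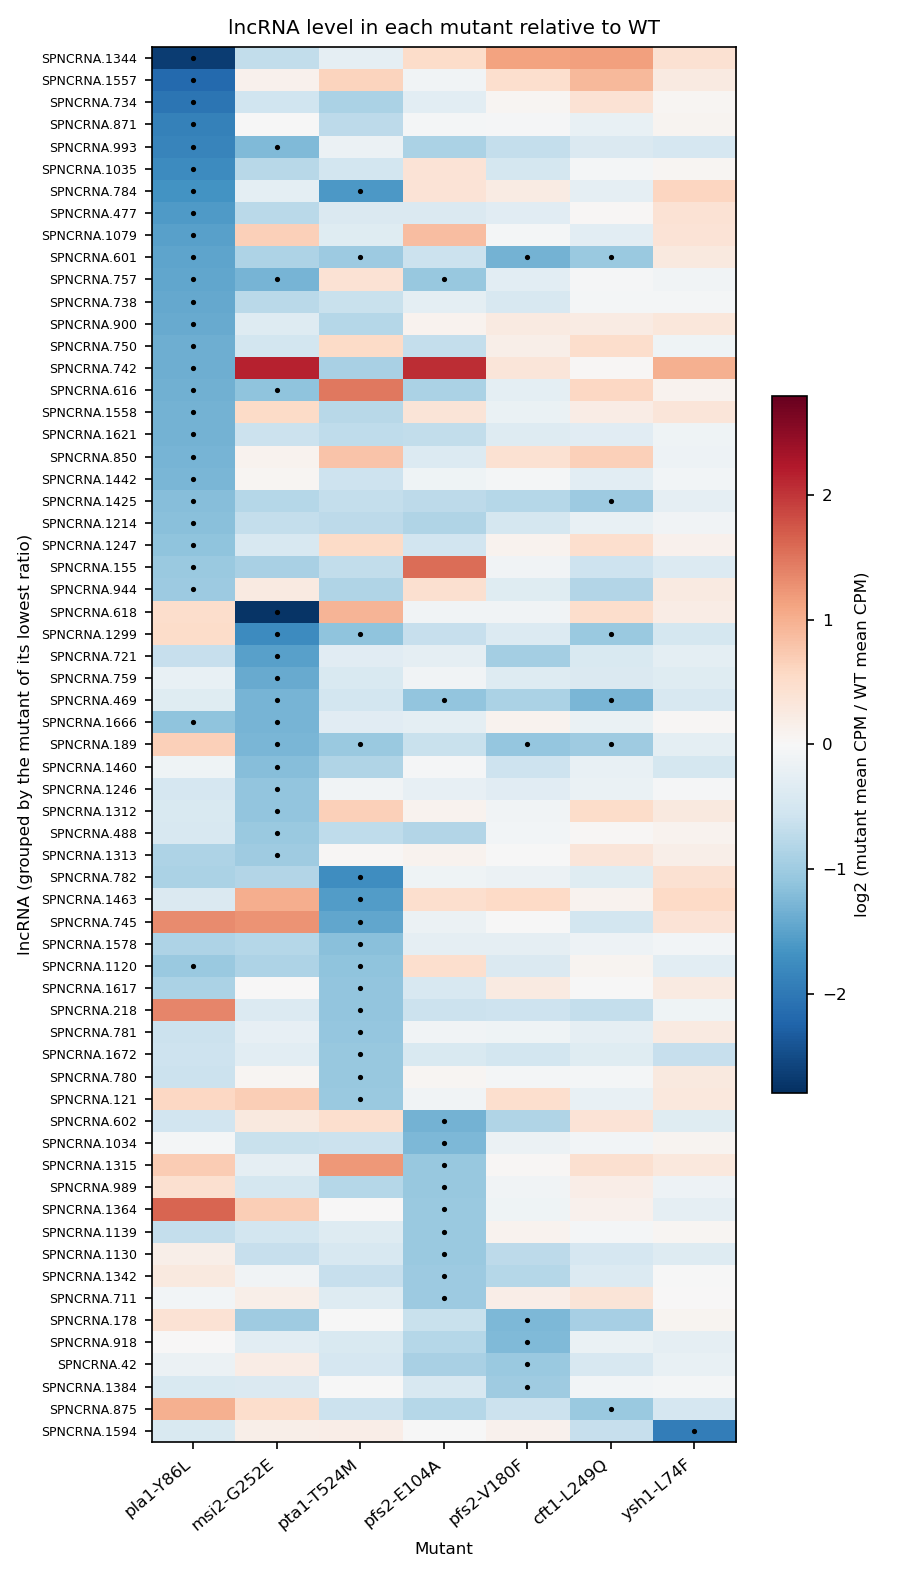
Each row is one of the 63 lncRNAs and each column a mutant; colour gives the log2 ratio of the mutant's mean CPM (n = 3) to the WT mean (n = 3), blue below and red above WT, and a dot marks a ratio at or below 0.5. Rows are grouped by the mutant with the lowest ratio, which sets the blocks of dots; there are 27 dots in pla1-Y86L and 1 in ysh1-L74F, and 52 of the 63 rows have 1 dot.

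The other mid-level lncRNAs had higher median ratios to WT, which is what the selection sets. For the 647 that were low in no mutant the median was 1.33 in msi2-G252E, 1.27 in pla1-Y86L, 1.13 in ysh1-L74F, 1.13 in cft1-L249Q, 1.11 with pfs2-V180F, 0.998 with pfs2-E104A and 0.959 in pta1-T524M. For the 63 the median was 0.634 in pla1-Y86L, 0.657 in pta1-T524M, 0.701 in msi2-G252E, 0.763 with pfs2-E104A, 0.878 in cft1-L249Q, 0.895 with pfs2-V180F and 1.01 in ysh1-L74F. Among all 711, those at 2 times the WT mean or more outnumbered the low ones by 124 to 16 in msi2-G252E, 113 to 28 in pla1-Y86L and 61 to 7 with pfs2-V180F, and by 24 to 15 in pta1-T524M. Over all genes tested, 2 times the WT mean or more was reached by 6.25% in msi2-G252E, 5.55% in pla1-Y86L, 2.93% with pfs2-V180F, 2.56% in cft1-L249Q, 1.48% in pta1-T524M, 1.13% with pfs2-E104A and 0.668% in ysh1-L74F. Relative to TMM scaling, ratios of CPM by column total sit higher, since they put the median of all genes tested at a log2 ratio of 0.17 in msi2-G252E and 0.13 in cft1-L249Q, and at 0.09 or less in the other mutants.

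The poly(A) polymerase mutant pla1-Y86L held the largest group. SPNCRNA.1344 had 6.28, 7.25 and 5.27 CPM in WT and 0.888, 1.04 and 1.03 CPM in pla1-Y86L, a ratio of 0.158. It had 16.1, 14.9 and 10.6 CPM in cft1-L249Q and 14.9, 13.8 and 12.4 CPM in pfs2-V180F. The transcript, which lies antisense to the uncharacterised gene SPBC1271.08c, was thus below WT in every pla1-Y86L library and above WT in every library of those other strains, with no overlap among the 3 levels. SPNCRNA.1557, inside the gene for the histone demethylase subunit Lid2 on the opposite strand, had 7.59, 5.24 and 7.04 CPM in WT and 1.44, 1.39 and 1.57 CPM in pla1-Y86L, a ratio of 0.221. In the other mutants its libraries ran from 6.01 to 15 CPM, so the pla1-Y86L libraries stood apart from all the rest.

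SPNCRNA.734, inside the purine synthesis gene ade3 on the opposite strand, had 1.5, 1.40 and 1.35 CPM in WT and 0.407, 0.347 and 0.285 CPM in pla1-Y86L, or 8 to 11 reads per library. SPNCRNA.871 had 6.56, 6.07 and 6.94 CPM in WT and 1.70, 1.22 and 2.35 CPM in pla1-Y86L. Both had their next lowest mean in pta1-T524M, with libraries at 0.721 to 0.852 CPM for SPNCRNA.734 and 2.88 to 4.83 CPM for SPNCRNA.871, all below WT. SPNCRNA.1035 had 2.37, 2.47 and 1.96 CPM in WT and 0.851, 0.695 and 0.463 CPM in pla1-Y86L. It had 0.961, 1.78 and 1.22 CPM in msi2-G252E, 1.45, 1.74 and 1.68 CPM with pfs2-V180F and 1.48, 1.65 and 1.63 CPM in pta1-T524M, all below WT and above pla1-Y86L. SPNCRNA.738, the transcript with the highest WT level, had 8.10, 11.0 and 9.22 CPM in WT and 3.74, 3.04 and 3.77 CPM in pla1-Y86L, where every library was below those of all other groups.

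SPNCRNA.993 runs away from mei2, the gene for the RNA-binding protein that drives entry into meiosis. It had 2.65, 2.09 and 2.42 CPM in WT, 0.666, 0.652 and 0.676 CPM in pla1-Y86L and 1.00, 0.807 and 1.22 CPM in msi2-G252E. Neither mutant overlapped WT, and the pla1-Y86L libraries were the lowest of all 24. The remaining lncRNAs that were low in pla1-Y86L had ratios from 0.313 (SPNCRNA.784) to 0.495 (SPNCRNA.944).

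In msi2-G252E, SPNCRNA.618 had the lowest ratio of all 63, at 0.149. It had 2.29, 2.35 and 2.06 CPM in WT and 0.280, 0.594 and 0.122 CPM in msi2-G252E, which is 3 to 14 reads per library, and 4.25, 4.62 and 4.12 CPM in pta1-T524M. The msi2-G252E libraries were below and the pta1-T524M libraries above all WT libraries. SPNCRNA.1299 had 2.61, 3.38 and 1.99 CPM in WT, 0.801, 1.02 and 0.527 CPM in msi2-G252E, 1.12, 1.44 and 1.10 CPM in pta1-T524M and 1.89, 1.08 and 0.928 CPM in cft1-L249Q. It has no protein-coding gene within 1 kb, and all libraries of those 3 mutants lay below WT, whereas pla1-Y86L held 3.18, 4.04 and 4.13 CPM and overlapped WT. The adjacent SPNCRNA.1312 and SPNCRNA.1313, both antisense to the ABC transporter gene abc3, were both low in msi2-G252E. SPNCRNA.1312 had 6.05, 6.83 and 7.12 CPM in WT and 3.69, 2.93 and 2.68 CPM in msi2-G252E. SPNCRNA.1313 had 2.37, 2.70 and 3.38 CPM in WT and 1.76, 1.19 and 1.26 CPM in msi2-G252E. These abc3 antisense transcripts were chosen after their values were seen.

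In pta1-T524M, 4 of the 15 low lncRNAs came from one locus. SPNCRNA.780, SPNCRNA.781, SPNCRNA.782 and SPNCRNA.784 lie next to each other on both strands of chromosome I, SPNCRNA.781 and SPNCRNA.782 overlap on opposite strands, and hsr1, the gene for a DNA-binding transcription factor, lies downstream of SPNCRNA.784. SPNCRNA.782 had 8.30, 8.54 and 9.11 CPM in WT and 2.92, 2.14 and 2.70 CPM in pta1-T524M, a ratio of 0.299. SPNCRNA.781 had 8.89, 9.26 and 9.57 CPM in WT and 3.53, 5.03 and 4.44 CPM in pta1-T524M. Reads of these overlapping partners cannot be told apart unless the counting used strand.

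SPNCRNA.780 had 6.28, 7.17 and 5.94 CPM in WT and 2.81, 3.26 and 3.27 CPM in pta1-T524M. SPNCRNA.784 had 3.52, 2.81 and 4.20 CPM in WT, 1.23, 1.07 and 1.17 CPM in pta1-T524M and 1.26, 1.22 and 0.819 CPM in pla1-Y86L. All 4 transcripts of the locus were thus below WT in every pta1-T524M library, and SPNCRNA.784 in every pla1-Y86L library as well. In ysh1-L74F their means were above WT, at ratios of 1.20, 1.18, 1.35 and 1.52 for SPNCRNA.780, SPNCRNA.781, SPNCRNA.782 and SPNCRNA.784. SPNCRNA.780, SPNCRNA.781 and SPNCRNA.784 were chosen after their values were seen.

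One lncRNA was low in ysh1-L74F. SPNCRNA.1594, antisense to the ribosomal protein gene rpl1801, had 3.87, 3.49 and 3.24 CPM in WT and 0.858, 0.782 and 1.14 CPM in ysh1-L74F, a ratio of 0.262. In cft1-L249Q its libraries were scattered, at 1.19, 2.17 and 3.40 CPM, and overlapped WT. The other mutant libraries ran from 2.15 to 4.45 CPM, so the 3 ysh1-L74F libraries were the lowest of all 24.

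The lncRNAs that were low with the pfs2 alleles had ratios nearer to the limit. With pfs2-E104A the lowest were SPNCRNA.602 at 0.398 and SPNCRNA.1034 at 0.415, and the other 9 ran from 0.465 to 0.491. With pfs2-V180F the 6 ran from 0.40 (SPNCRNA.601) to 0.499 (SPNCRNA.1384). SPNCRNA.1384 had 4.15, 3.26 and 3.27 CPM in WT and 1.96, 2.01 and 1.37 CPM with pfs2-V180F, against 1.97, 3.25 and 2.62 CPM with pfs2-E104A. It is one of the 6 annotated as a possible alternative UTR, and with both alleles its libraries were below WT.

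The transcripts that were low in the most mutants, 4 each, were SPNCRNA.601 and SPNCRNA.189, both named after their values were seen. SPNCRNA.601 had 1.38, 1.25 and 2.03 CPM in WT and was low in cft1-L249Q (ratio 0.486), pfs2-V180F (0.40), pta1-T524M (0.494) and pla1-Y86L (0.357). SPNCRNA.189 had 2.25, 1.52 and 1.99 CPM in WT and was low in cft1-L249Q (0.50), msi2-G252E (0.411), pfs2-V180F (0.475) and pta1-T524M (0.488), but had 3.15, 3.39 and 2.63 CPM in pla1-Y86L, above all WT libraries. Their counts were small, with 33 to 57 reads per WT library for SPNCRNA.601 and 40 to 57 for SPNCRNA.189.

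**Figure D2:**
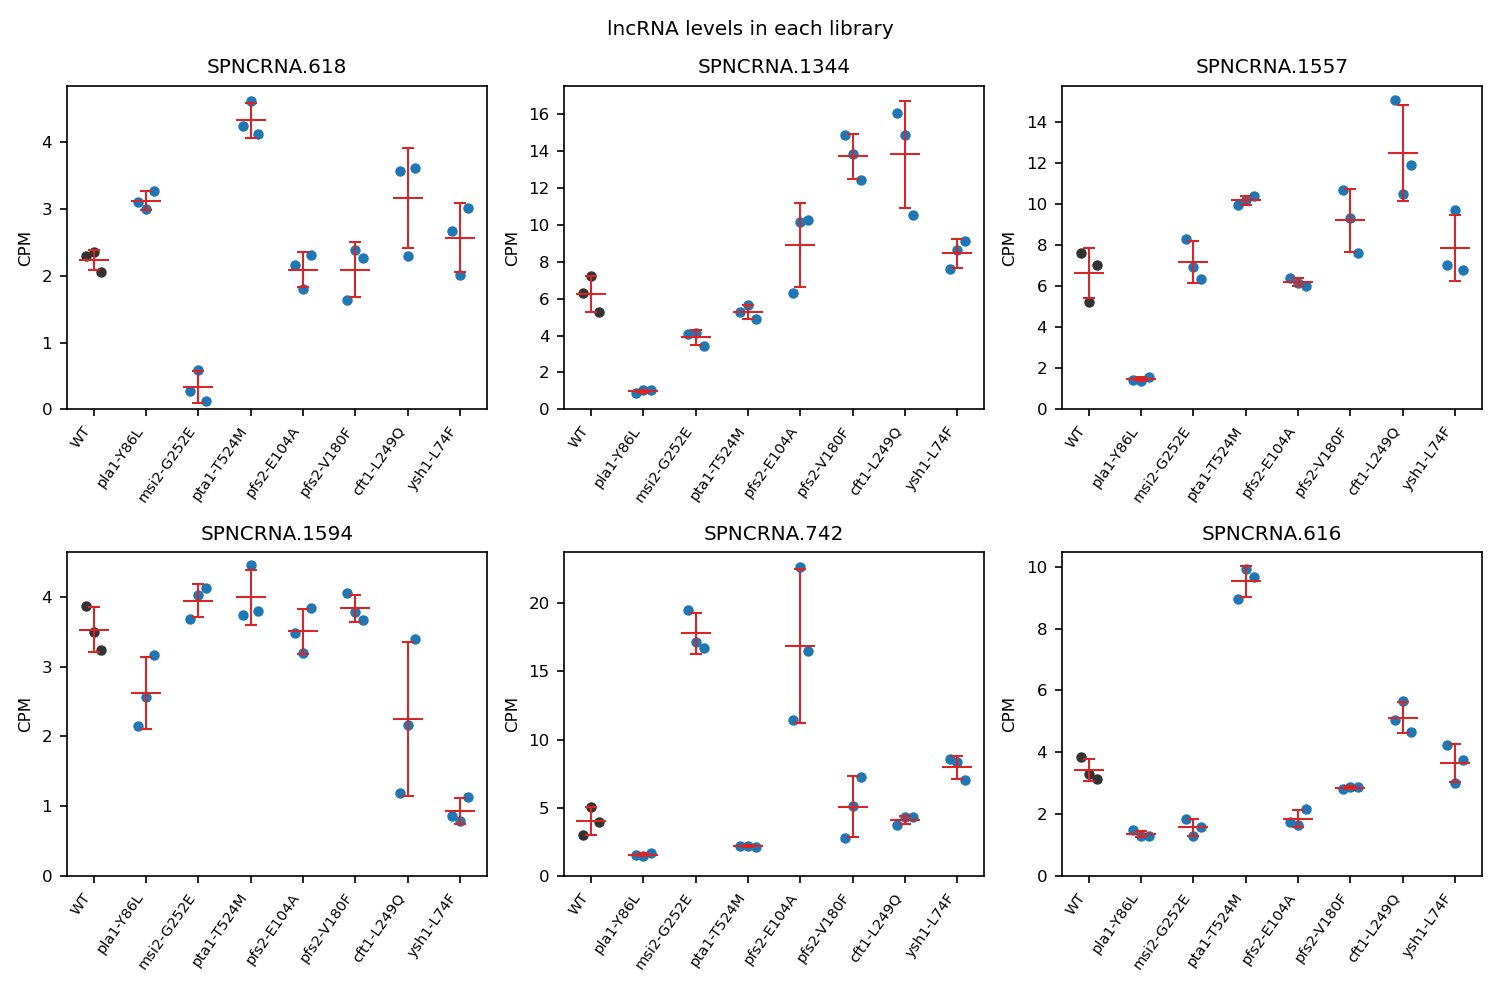
Each panel shows the CPM of one lncRNA in all 24 libraries by group; points are libraries (black WT, blue mutants), the long red line is the mean and the bars are ±1 SD (n = 3), and each vertical axis starts at 0. SPNCRNA.618 is lowest in msi2-G252E, SPNCRNA.1344 and SPNCRNA.1557 in pla1-Y86L and SPNCRNA.1594 in ysh1-L74F, while SPNCRNA.742 and SPNCRNA.616 are low in pla1-Y86L and high in another mutant.

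A lncRNA low in one mutant was in some cases high in another. Of the 63, 10 were also at 2 times the WT mean or more in at least one mutant, a ratio reached by 11.4% of all genes tested. SPNCRNA.742 had 3.00, 5.09 and 3.98 CPM in WT and 1.52, 1.48 and 1.67 CPM in pla1-Y86L. In msi2-G252E it had 19.5, 17.2 and 16.7 CPM and with pfs2-E104A 11.4, 22.7 and 16.5 CPM. The pla1-Y86L libraries were below all WT libraries, and those of msi2-G252E and pfs2-E104A, which overlapped each other, were above them. The transcript lies on the same strand as met26, a methionine synthesis gene with 3609.6, 3580.3 and 3675 CPM in WT, and is annotated as a possible alternative UTR.

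SPNCRNA.616 and SPNCRNA.618 lie within 10 kb of each other on opposite strands, and both were above WT in every pta1-T524M library. SPNCRNA.616 had 3.83, 3.30 and 3.13 CPM in WT, 8.97, 9.94 and 9.66 CPM in pta1-T524M, 1.48, 1.30 and 1.28 CPM in pla1-Y86L and 1.84, 1.27 and 1.58 CPM in msi2-G252E. Each of the 3 mutants was separate from WT. SPNCRNA.1364, low with pfs2-E104A at 0.967, 0.568 and 0.513 CPM, had 1.58, 1.48 and 1.17 CPM in WT and 3.59, 5.34 and 4.24 CPM in pla1-Y86L.

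SPNCRNA.155 had the opposite arrangement of those strains, with 1.34, 1.06 and 0.889 CPM in WT, 3.21, 3.36 and 3.13 CPM with pfs2-E104A and 0.592, 0.347 and 0.676 CPM in pla1-Y86L. SPNCRNA.218 had 1.78, 2.73 and 1.78 CPM in WT, 0.757, 0.990 and 1.17 CPM in pta1-T524M and 5.26, 6.30 and 4.56 CPM in pla1-Y86L. SPNCRNA.745, with the lowest WT level at 1.34, 1.02 and 0.818 CPM, had 0.252, 0.412 and 0.497 CPM in pta1-T524M, 2.52, 2.76 and 2.39 CPM in msi2-G252E and 2.85, 3.26 and 1.85 CPM in pla1-Y86L. In all 3 cases the low and the high mutant were on opposite sides of every WT library.

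The position of the 63, which the selection did not use, is given beside that of the 641 annotated lncRNAs of the same level that were low in no mutant, as shares without a test. Overlap with a protein-coding gene on the opposite strand was found for 31 of the 63 (49.2%) and for 474 of the others (73.9%). No protein-coding gene lay within 1 kb of 8 of the 63 (12.7%), against 7 of the others (1.09%). The 8 were SPNCRNA.1299, SPNCRNA.1425, SPNCRNA.1460, SPNCRNA.488, SPNCRNA.745, SPNCRNA.780, SPNCRNA.781 and SPNCRNA.782, of which the last 3 share the locus next to hsr1. A gene starting nearby and pointing away (divergent) was found for 29 (46.0%) against 274 (42.7%). A gene downstream on the same strand was found for 11 (17.5%) against 208 (32.4%). Of the 31 antisense transcripts, 7 lie wholly inside the gene on the other strand, which is 11.1% of the 63 against 13.3% of the others. They held 1.42 to 8.33 CPM in WT, against 43.7 to 866 CPM for those genes. The sources used here do not state whether counting used strand, and counts of overlapping genes are uncertain to that extent.

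The protein-coding neighbours were not used in choosing the lncRNAs and could be tested. However, 33 of the 63 overlap such a gene, and there the counts of gene and lncRNA may not be independent. A neighbour is here a gene that overlaps one of the 63, or the nearest gene within 1 kb in each orientation. There were 103, of which 101 passed the filter. With edgeR's quasi-likelihood test at an adjusted p under 0.05, more neighbours were lower than higher in every mutant other than ysh1-L74F. In pla1-Y86L 49 were lower (48.5%) and 21 higher (20.8%), against 36.0% lower and 30.8% higher of the 5004 protein-coding genes tested. In msi2-G252E 49 were lower (48.5%) and 19 higher (18.8%), against 33.6% and 26.7%. In pta1-T524M 33 were lower (32.7%) and 15 higher (14.9%), against 19.1% and 20.0%. The neighbours' median log2 fold change was -0.12 in pla1-Y86L, -0.13 in msi2-G252E and -0.08 in pta1-T524M, where that of all protein-coding genes was -0.02, -0.02 and 0.00.

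In cft1-L249Q 35 neighbours were lower (34.7%) and 22 higher (21.8%), against 22.9% and 23.0% of protein-coding genes. With pfs2-V180F 32 were lower (31.7%) and 22 higher (21.8%), against 27.0% and 23.5%, and with pfs2-E104A 22 were lower (21.8%) and 16 higher (15.8%), against 16.7% and 19.4%. In ysh1-L74F 12 were lower (11.9%) and 14 higher (13.9%), against 8.03% and 6.63%. The total of 26 in ysh1-L74F was 15 without ysh1-L74F replicate 1 and 14 without replicate 2. The comparisons share their WT libraries, and the difference of these shares from those of all protein-coding genes was not tested.

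**Figure D3:**
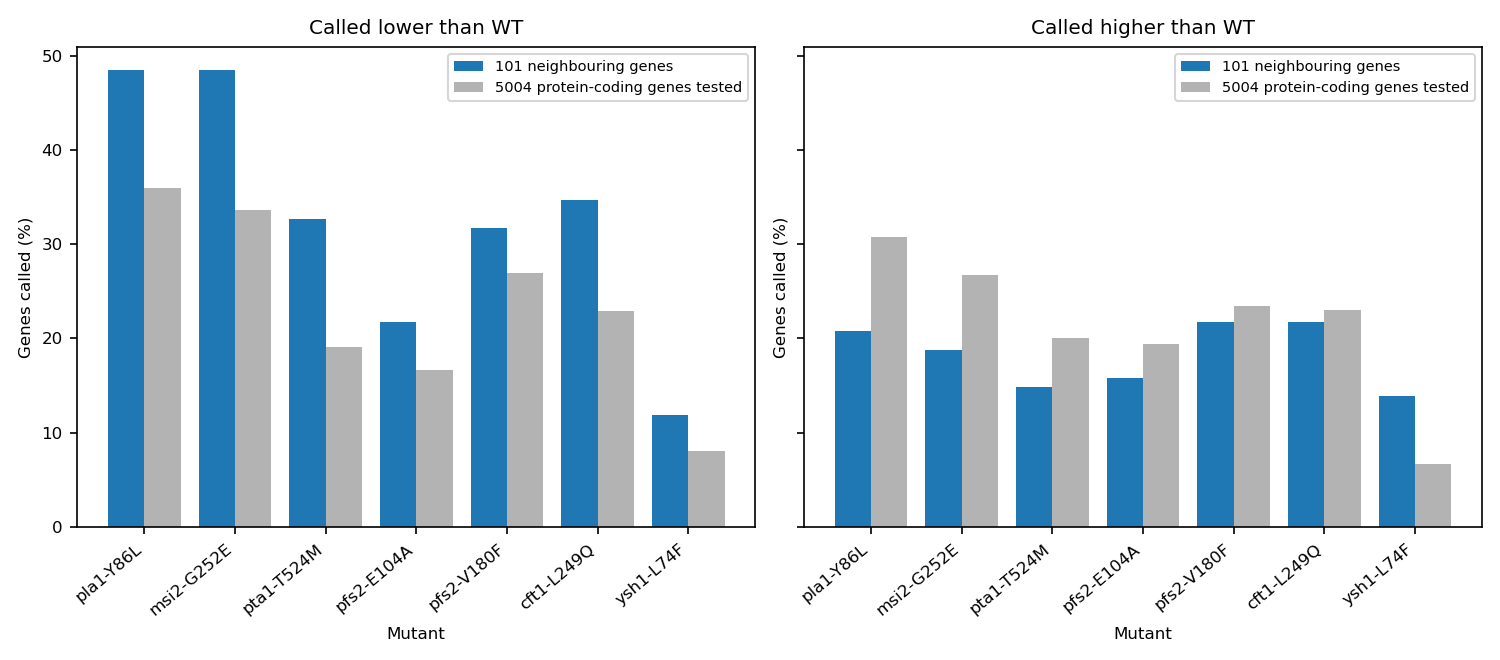
Bars give the percent of genes called lower (left) and higher (right) than WT in each mutant by edgeR at an adjusted p under 0.05, for the 101 tested neighbours of the 63 lncRNAs (blue) and the 5004 protein-coding genes tested (grey). The blue bar is above the grey one for lower genes in all 7 mutants, with 48.5% against 36.0% in pla1-Y86L, and below it for higher genes in 6, the exception being ysh1-L74F.

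Each neighbour was next examined in the mutant in which its lncRNA was low, which gave 128 cases over 55 lncRNAs. The neighbour was lower in 61 cases (47.7%), higher in 18 (14.1%) and not called in 49. Averaged over the mutants of these cases, 28.3% of protein-coding genes were lower and 25.4% higher. Most changes were small: 6 of the lower and 2 of the higher cases were at least 2-fold. The median log2 fold change over all 128 cases was -0.13. Calls used TMM scaling, so a gene called lower by little need not be lower in CPM. The gene trm9, called lower in cft1-L249Q, had a mean of 58.5 CPM in WT and 58.6 CPM in that mutant. A gene counts once for each mutant, and the 61 cases come from 49 genes. Of the 36 cases with a divergent gene, 21 (58.3%) were lower, from 15 genes, and 4 higher. In the same mutants 26.2% of protein-coding genes were lower and 24.1% higher. The gene byr3 alone gave 4 of the 21 and was lower in every mutant. Of the 14 cases with a gene downstream on the same strand, 10 (71.4%) were lower, from 9 genes, and 1 higher. The shares of protein-coding genes were 30.8% lower and 27.0% higher. Of the 8 cases with a gene upstream, none was lower and 3 were higher, against 29.5% lower and 26.5% higher. Genes on the opposite strand were lower in 16 of 40 cases and higher in 8, against 29.2% lower and 25.9% higher. Convergent genes were lower in 9 of 25 and higher in 2, against 27.8% lower and 25.1% higher. The differences between these shares were not tested. In pla1-Y86L, which gave 48 of the cases, 25 neighbours were lower and 8 higher, among them 7 of 10 divergent genes lower and 1 higher. Of all protein-coding genes tested, 36.0% were lower and 30.8% higher in that mutant. Over the 29 divergent pairs, Pearson's r between the log2 fold changes of lncRNA and gene lay between 0.20 in ysh1-L74F and 0.54 in pta1-T524M, and over the 37 antisense pairs between -0.34 in msi2-G252E and 0.56 in pfs2-V180F. The values of a pair come from the same libraries, and the lncRNA values were chosen, so r only describes them.

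Among the divergent genes, mei2 had the largest change. It had 64.6, 59.6 and 63.8 CPM in WT and 4.18, 4.08 and 4.52 CPM in pla1-Y86L, a log2 fold change of -3.95 ± 0.18 (SE, adjusted p = 2.14e-14). In msi2-G252E it had 19.4, 18.6 and 19.7 CPM (-1.88 ± 0.15, adjusted p = 2.23e-10). Both mutants were separate from WT for mei2 and for SPNCRNA.993, and both transcripts were lowest in pla1-Y86L. In pta1-T524M, with 58.4, 66.9 and 56.9 CPM, mei2 overlapped WT (-0.08 ± 0.13), as did SPNCRNA.993 with 2.52, 2.06 and 1.85 CPM. SPNCRNA.993 was also below all WT libraries with pfs2-E104A (0.967, 1.55 and 1.33 CPM) and in ysh1-L74F (1.54, 1.68 and 1.96 CPM). The level of mei2 in those strains is not described here.

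The aldehyde dehydrogenase gene atd1 is divergent from SPNCRNA.989. It had 364, 304 and 368 CPM in WT, 89.5, 62.9 and 92.4 CPM with pfs2-E104A (log2 fold change -2.12 ± 0.14, adjusted p = 1.54e-10) and 1789, 1834 and 1865 CPM in pla1-Y86L (2.33 ± 0.13, adjusted p = 6.84e-13). SPNCRNA.989 had 5.49, 5.01 and 4.80 CPM in WT, 2.82, 3.10 and 1.44 CPM with pfs2-E104A and 7.25, 6.21 and 7.55 CPM in pla1-Y86L. Both transcripts were below WT in every pfs2-E104A library and above it in every pla1-Y86L library. They parted in msi2-G252E and pta1-T524M, in both of which atd1 was higher (0.44 ± 0.13 each) while SPNCRNA.989, at 3.61, 3.69 and 3.57 CPM and at 3.32, 2.85 and 2.66 CPM, was below all WT libraries. The atd1 call in pta1-T524M was lost without pta1-T524M replicate 1 (0.32).

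The oligopeptide transporter gene isp4, divergent from SPNCRNA.1442, had 55.1, 55.5 and 53.5 CPM in WT and 23.1, 24.7 and 23.9 CPM in pla1-Y86L (-1.27 ± 0.20, adjusted p = 1.03e-05). SPNCRNA.1442 had 6.09, 5.58 and 6.23 CPM in WT and 2.59, 2.65 and 2.17 CPM in pla1-Y86L. Both were separate from WT there, but in msi2-G252E isp4 was higher (1.02 ± 0.18) and SPNCRNA.1442 overlapped WT at 5.37, 7.47 and 5.76 CPM. Glutamate synthase (glt1), divergent from SPNCRNA.900, was lower in pla1-Y86L (-0.35 ± 0.09) and by more in msi2-G252E (-1.48 ± 0.10), whereas SPNCRNA.900 was lower in pla1-Y86L (ratio 0.373) than in msi2-G252E (0.775).

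Other divergent genes in pla1-Y86L were lower by less: the cyclin gene pas1, beside SPNCRNA.738, by a log2 fold change of -0.62 ± 0.06, and hem4, a haem synthesis gene beside SPNCRNA.871, by -0.47 ± 0.04. The proteasome gene rpn502, divergent from SPNCRNA.1035, was not called (-0.03 ± 0.04), nor was the sterol demethylase gene erg11, divergent from SPNCRNA.155 (-0.06 ± 0.05). SPAC9.07c, divergent from SPNCRNA.742, was higher (0.24 ± 0.04). Further divergent genes were chosen after their values were seen. The branched-chain amino acid synthesis gene ilv5 was lower in msi2-G252E (-0.89 ± 0.06) and pla1-Y86L (-0.50 ± 0.06), where SPNCRNA.1666 beside it was at 0.408 and 0.458 of WT, and also in cft1-L249Q (-0.75 ± 0.06), where SPNCRNA.1666 was at 0.874. The zinc-finger gene byr3, beside SPNCRNA.189, was lower in the 4 mutants in which that lncRNA was low, by -0.37 ± 0.03 in cft1-L249Q, -0.56 ± 0.03 in msi2-G252E, -0.43 ± 0.03 with pfs2-V180F and -0.16 ± 0.03 in pta1-T524M. It was lower in the other mutants as well, by the most in pla1-Y86L (-0.47 ± 0.03), where SPNCRNA.189 was above WT.

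Of the genes downstream on the same strand, the meiotic gene mcp7, next to SPNCRNA.155, had 18.6, 18.8 and 17.9 CPM in WT and 7.96, 9.03 and 9.58 CPM in pla1-Y86L (-1.13 ± 0.10, adjusted p = 9.93e-10). With pfs2-E104A, where SPNCRNA.155 was above WT, it had 33.9, 38.7 and 38.2 CPM (0.96 ± 0.08, adjusted p = 1.73e-08). The levels of both transcripts did not go the same way in all strains, since mcp7 was also higher in cft1-L249Q (1.00 ± 0.08), pfs2-V180F (1.16 ± 0.08) and msi2-G252E (0.63 ± 0.08), where SPNCRNA.155 had mean ratios of 0.669, 0.928 and 0.534. The gene hsr1, chosen after its values were seen, was lower in pta1-T524M (-0.47 ± 0.06) and pla1-Y86L (-0.55 ± 0.06), the mutants in which SPNCRNA.784 was low, and also in msi2-G252E (-0.37 ± 0.06). The malate transporter gene mae1, next to SPNCRNA.1035, was lower in pla1-Y86L (-0.17 ± 0.04), and tif211, a translation initiation factor gene next to SPNCRNA.218, was lower in pta1-T524M (-0.17 ± 0.04).

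Genes on the opposite strand went both ways. The gene abc3 had 42.0, 44.2 and 47.9 CPM in WT and 154, 145 and 135 CPM in msi2-G252E (1.52 ± 0.08, adjusted p = 3.20e-13), where its antisense transcripts SPNCRNA.1312 and SPNCRNA.1313 were low. The GPI-anchor synthesis gene gpi7 had 67.2, 66.4 and 72.1 CPM in WT and 144, 137 and 132 CPM in msi2-G252E (0.83 ± 0.05, adjusted p = 3.46e-12), where SPNCRNA.618 was low. All mRNA libraries of the mutant were thus above WT in both cases, and all lncRNA libraries below it. For abc3 this was not so in other mutants: it was also higher in pta1-T524M (0.42 ± 0.08), cft1-L249Q (0.37 ± 0.08) and ysh1-L74F (0.33 ± 0.08), and in all 3 every SPNCRNA.1312 library was above WT, with means at 1.59, 1.43 and 1.21 of WT. The abc3 call in ysh1-L74F was lost without ysh1-L74F replicate 2 (0.30) or WT replicate 1 (0.29). In pla1-Y86L abc3 was higher (0.37 ± 0.08) and every SPNCRNA.1312 library below WT. In pta1-T524M, where SPNCRNA.618 was above WT, gpi7 was not called (0.07 ± 0.05).

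The gene SPBC1271.08c was called in 6 mutants, and in each its mean and that of its antisense transcript SPNCRNA.1344 lay on the same side of WT. It was higher in cft1-L249Q (1.38 ± 0.15), pfs2-V180F (1.28 ± 0.15), pfs2-E104A (0.71 ± 0.16) and ysh1-L74F (0.64 ± 0.16). It was lower in pla1-Y86L (-0.55 ± 0.17) and msi2-G252E (-0.48 ± 0.17), where its libraries overlapped WT. The msi2-G252E call was lost without msi2-G252E replicate 3 (-0.40), WT replicate 1 (-0.45) or WT replicate 2 (-0.35). The ysh1-L74F call was lost without WT replicate 3 (0.51). SPAC17A2.11, antisense to SPNCRNA.918, was lower with pfs2-V180F (-2.27 ± 0.26, adjusted p = 2.11e-07), where the lncRNA was at 0.426 of WT. The level of this gene was small, with means of 1.65 CPM in WT and 0.369 CPM with pfs2-V180F. SPAC17A2.11 was lower to a like extent in cft1-L249Q (-2.02 ± 0.25), msi2-G252E (-1.77 ± 0.24) and pla1-Y86L (-2.18 ± 0.25). In those strains SPNCRNA.918 was at 0.878, 0.818 and 1.01 of WT. Of the antisense partners of other named lncRNAs, lid2 was not called in pla1-Y86L (-0.04 ± 0.05) and ade3 was lower there (-0.38 ± 0.03). The gene rrg8, opposite SPNCRNA.871, was higher in pla1-Y86L (0.55 ± 0.16), at small means of 1.51 CPM in WT and 2.30 CPM in the mutant. Other antisense partners, chosen after their values were seen, went both ways: qcr10, a respiratory chain gene opposite SPNCRNA.1558, was lower in pla1-Y86L (-0.84 ± 0.11), the ribosomal protein gene rpl102, opposite SPNCRNA.1578, was lower in pta1-T524M (-0.63 ± 0.05), and the DNA repair nuclease gene rad2, opposite SPNCRNA.1079, was higher in pla1-Y86L (0.49 ± 0.06). In ysh1-L74F, rpl1801 opposite SPNCRNA.1594 was lower by -0.19 ± 0.05 and the divergent splicing gene srp1 by -0.17 ± 0.04. The rpl1801 call was lost without ysh1-L74F replicate 1 (-0.18), ysh1-L74F replicate 2 (-0.17) or WT replicate 1 (-0.16), and the srp1 call without ysh1-L74F replicate 1 (-0.14) or 2 (-0.16).

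**Figure D4:**
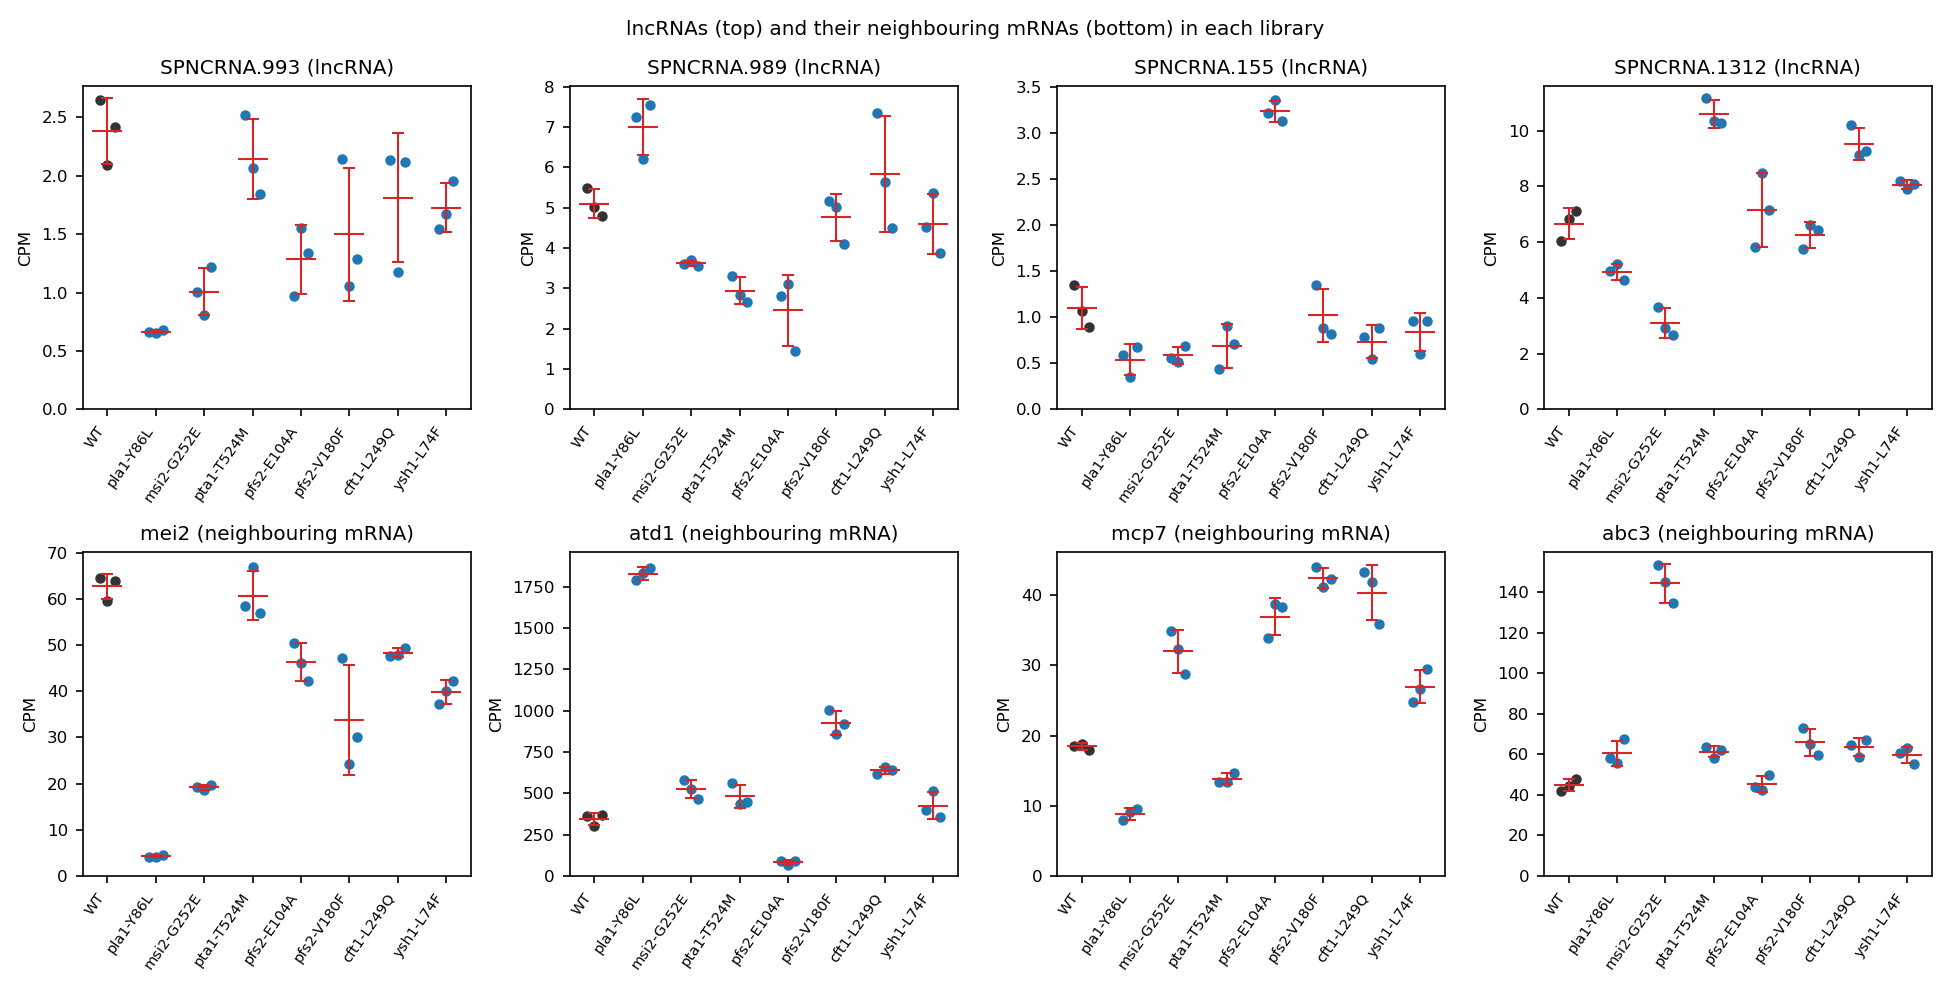
The upper panels show the CPM of 4 lncRNAs and the lower panels that of a neighbouring mRNA, in all 24 libraries by group; points are libraries (black WT, blue mutants), the long red line is the mean and the bars ±1 SD (n = 3), and each vertical axis starts at 0. SPNCRNA.993 and mei2 are lowest in pla1-Y86L and SPNCRNA.989 and atd1 lowest in pfs2-E104A, whereas abc3 is highest and SPNCRNA.1312 lowest in msi2-G252E.

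Against 30.3% of protein-coding genes lower in the same mutants, the 5 cases with a gene on the same strand were all lower. They include met26, which overlaps SPNCRNA.742 and was lower in pla1-Y86L (-0.43 ± 0.07). The gene met26 was also called lower in msi2-G252E, where every SPNCRNA.742 library was above WT. That call was lost without msi2-G252E replicate 1 (-0.18), 2 (-0.18) or 3 (-0.19), or WT replicate 1 (-0.18) or 3 (-0.17). Another was mod5, a gene for a cell-polarity protein that overlaps SPNCRNA.1384 and was lower with pfs2-V180F (-0.51 ± 0.05). To a like extent, mod5 was lower in msi2-G252E (-0.52 ± 0.05), where SPNCRNA.1384 was at 0.757 of WT. SPCC18.02, a transporter gene that overlaps SPNCRNA.1246 on its strand and SPNCRNA.1247 on the other and was chosen after its values were seen, was lower in msi2-G252E (-0.90 ± 0.04). Reads of genes that overlap on one strand cannot be told apart by strand. Among convergent genes, gmh2, a galactosyltransferase gene beside SPNCRNA.616, was lower in pla1-Y86L (-0.83 ± 0.05) and msi2-G252E (-0.57 ± 0.05), in both of which the lncRNA was low, and in pta1-T524M as well (-0.18 ± 0.05), where it was high. The convergent gene sfc1, beside SPNCRNA.734, was lower in pla1-Y86L (-0.60 ± 0.06).

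Of the genes named for a large change, some rested on single libraries. The antisense gene SPBC887.16, opposite SPNCRNA.1617, was at most 0.782 CPM in any library and was higher in pla1-Y86L (1.51 ± 0.54, adjusted p = 0.017), a call lost without pla1-Y86L replicate 2 or WT replicate 2. The glucose transporter gene ght1, convergent with SPNCRNA.1120, was lower in pta1-T524M (-0.51 ± 0.16) and pla1-Y86L (-0.57 ± 0.17), where that lncRNA was low. Both calls were lost without WT replicate 2, and that in pta1-T524M also without pta1-T524M replicate 2. With pfs2-E104A, ght1 was higher (1.12 ± 0.15) and SPNCRNA.1120 had a mean above WT. They parted in cft1-L249Q, where ght1 was lower and SPNCRNA.1120 was at 1.06 of WT. That ght1 call too was lost without WT replicate 2 (-0.40).

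The machinery that degrades nuclear lncRNAs or ends their transcription was itself measured through 28 genes for the exosome, its helper complexes and termination factors, all of which passed the filter. In pla1-Y86L 16 of the 28 were called, 10 higher and 6 lower, where 64.6% of all genes tested were called. With pfs2-V180F 2 were higher and 14 lower (background 48.1%), in cft1-L249Q 3 higher and 10 lower (43.3%), with pfs2-E104A 3 higher and 10 lower (34.2%) and in msi2-G252E 4 higher and 9 lower (58.8%). In pta1-T524M 6 were higher and 4 lower (38.4%), and in ysh1-L74F 1 was higher and 3 lower (14.4%). These backgrounds count both directions together. Of protein-coding genes, 30.8% were higher and 36.0% lower in pla1-Y86L, 23.5% and 27.0% with pfs2-V180F, and 23.0% and 22.9% in cft1-L249Q. The shares were 19.4% and 16.7% with pfs2-E104A, 26.7% and 33.6% in msi2-G252E, 20.0% and 19.1% in pta1-T524M, and 6.63% and 8.03% in ysh1-L74F. The list's median log2 fold change lay between -0.12 with pfs2-V180F and 0.03 in pla1-Y86L, against medians of all genes from -0.01 to 0.01. The total of 13 in cft1-L249Q was 8 without cft1-L249Q replicate 1, that of 16 with pfs2-V180F was 10 without WT replicate 3, and that of 4 in ysh1-L74F was 1 without ysh1-L74F replicate 1 or WT replicate 3 and 0 without ysh1-L74F replicate 2.

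The largest changes in the list were below 2-fold. The termination factor gene seb1 was lower with pfs2-E104A (-0.50 ± 0.05, adjusted p = 3.05e-07), the exosome nuclease gene dis3 was lower in msi2-G252E (-0.47 ± 0.04, adjusted p = 2.23e-10), and red1, whose protein is part of MTREC, was higher in pla1-Y86L (0.38 ± 0.04, adjusted p = 3.01e-08). The MTREC helicase gene mtl1, chosen after its values were seen, was called higher in all 7 mutants, by 0.09 ± 0.03 in pta1-T524M to 0.29 ± 0.03 in pla1-Y86L. Its part in the lncRNA levels was not tested.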

How the data were processed

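PolyA+ RNA was sequenced from 24 libraries, 3 biological replicates in each of 8 groups taken from the sample labels, with a directional kit, per the labels. Counts are the authors' deposited whole reads for each gene. According to the submitters' processing notes, the tools were SAMtools, HISAT2 2.1.0, DESeq2 and HTSeq 0.10.0, and the build ASM294v2. Strand setting and annotation release: not given in the sources used here. The authors' deposited comparison tables were not used.

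LncRNAs were chosen on CPM by column total, after leaving out 16 lncRNAs by identifier and 3 by name. The members and lists were chosen with earlier results of these data known. Counts were fitted in R 4.3.3 with edgeR 4.0.16 (filterByExpr, 6287 genes; TMM; quasi-likelihood; 1 mean per group over all 24 libraries, 16 residual degrees of freedom; common biological coefficient of variation 4.9%). Each mutant was tested against WT, with Benjamini-Hochberg adjustment over all genes tested. Log2 fold changes are mutant minus WT with their standard errors. Gene names and neighbours came from the RefSeq annotation of ASM294v3, which matched 6836 of 6988 identifiers; as its build differs, no coordinates or sequences are given. The scripts were tested on simulated data.

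The text names the 10 lncRNAs with the lowest ratio to WT, up to 6 that were also at 2 times WT or more, those nearest the limits of the selection, their neighbours, up to 10 other neighbours with the largest changes that were at least 2-fold, and the 3 list genes with the largest changes; not all are described. Alternatives were DESeq2 1.42.0, no filter, other scalings, a replicate block and leaving out each library. Same-numbered libraries had correlated deviations over 0.1 in every pair of 1 mutant, cft1-L249Q, where the block left the count of neighbours called at 57.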

Additional observations from a re-analysis of the deposited data

How the results depend on the processing

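No result reversed under any alternative run. The rule applied to TMM-scaled CPM chose 82 lncRNAs and to CPM by DESeq2 size factors 81, each including all 63; without WT replicate 1, 2 or 3 it chose 66, 68 and 68, sharing 52, 58 and 58 with the 63. Under TMM-scaled CPM the 63 were at or below 0.5 of WT 19 times in msi2-G252E and 7 times in cft1-L249Q, and as often as reported in the other mutants. DESeq2, no filter and the replicate block kept each count of neighbours or list genes within 1.5 times. The block gave 57 neighbours called for cft1-L249Q, 69 for msi2-G252E, 37 for pfs2-E104A and 54 for pfs2-V180F. It gave 48 for pta1-T524M, 28 for ysh1-L74F and 69 for pla1-Y86L. Same-number correlations ran from -0.12 to 0.31 (9 of 21 pairs over 0.1), and 10 of 21 mutant libraries were closest to their own number. Only cft1-L249Q had every pair over 0.1. The highest value was that of pfs2-E104A replicate 2 and the lowest that of ysh1-L74F replicate 2. For pta1-T524M, replicates 2 and 3 had 0.19 and 0.17. Whether same-numbered libraries outside cft1-L249Q shared more than a number was not tested.

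Leaving out 1 library gave 14 to 31 neighbours called in ysh1-L74F, 8 to 13 list genes in cft1-L249Q, 10 to 15 with pfs2-V180F and 0 to 4 in ysh1-L74F, and 3 to 6 lncRNAs at or below 0.5 of WT in cft1-L249Q, 6 to 11 with pfs2-E104A and 3 to 6 with pfs2-V180F; the fits have fewer samples. Over all alternatives, the fold changes of named neighbours stayed on their side of the threshold in 1505 refits and lost the call in 115; those of named lncRNAs moved by more than the spread between replicates in 18 and by less in 206. Promoter sequences were not used here, so the planned motif counts were not run. With 23 to 290 reads per WT library, ratios near the limit rest on small counts.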
